A study of Mus musculus with 13 samples.

Results

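Resting thymocytes that carry both the CD4 and the CD8 coreceptor express the recombination-activating genes. Cells meant to represent them were picked out of single-cell RNA-seq libraries of mouse thymus by their counts of a few genes. The Cd4 and Cd8 genes were not among these, and cell size and surface protein were not measured. A cell was taken if it had between 500 and 25000 unique molecular identifiers (UMIs, 1 per captured RNA molecule), if the UMIs of Arpp21, Rag1 and Rag2 together (called R from here on) came to 4 or more and to at least 3 times those of Tox, if Mki67 and Top2a together had at most 1 UMI, and if Il2ra had none. The rule picked 20151 of the 58756 cells in that UMI range, from 61923 thymic cells in all and 148709 cells in the tables of both Parse experiments. These cells are called resting DP cells below, and the 38605 cells that failed the rule are called the other cells. The values of the 7 genes in the rule describe how the cells were chosen and are no finding.

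The series holds thymocytes run on 2 kits of Parse Biosciences, in which fixed cells receive their barcodes in successive rounds of pooling and splitting over wells. Parse WT, the whole-transcriptome kit, gave the thymic samples WT 1 to WT 4, and the Parse Mini kit gave Mini 1-A, 1-B, 2-A and 2-B. In each experiment the 4 samples were thymic lobes of 2 untreated female C57BL/6N mice aged 2 months, 2 lobes per mouse, dissociated with collagenase/dispase and DNase I and fixed without sorting. Which lobe came from which mouse could not be fixed from the sources used here, so lobes are not independent animals, p-values measure the spread between lobes and are too small, and kit, mice and run cannot be told apart.

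After the beta chain of the T cell receptor (TCR) has been made and the cells have divided, thymocytes come to rest as CD4+CD8+ cells and rearrange the alpha chain. RAG1 and RAG2 form the recombinase that cuts the V and J segments, the end-joining enzymes seal the cuts, and terminal transferase adds bases at the joints. A first joint can be replaced by later ones that use V segments farther from and J segments closer to the constant region, and since the TCR delta genes lie between the alpha V and J segments, a V to J joint on a chromosome removes them. Bcl-xL keeps these cells alive for the time this takes, and cells whose receptor binds self-peptides on MHC are then selected, raise CD5 and CD69 and shut off the recombinase.

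Across the 8 samples the resting DP cells had median depths of 1550 to 2738 UMIs, and the other cells 3160 to 5422. The ribosomal RNA share, from Rn18s-rs5, mt-Rnr1 and mt-Rnr2, was 11% to 25.8% in resting DP cells, and levels are therefore given as CPM, counts per 1e6 UMIs outside these 3 genes, from the summed cells of a sample. WT 1 stood apart, with 3974 cells against 9564 to 14200 in WT 2 to WT 4, the deepest resting DP cells (2738 UMIs) and the highest share of them in its experiment. No cell barcode of the thymic samples was repeated within an experiment. None could be shared between the experiments, since their thymic samples used different first-round wells. An artificial-doublet score, the fraction of artificial sums of 2 random cells among the cells most like a given cell, averaged 0.232 to 0.271 in resting DP cells and 0.409 to 0.442 in the other cells.

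The name was checked against the coreceptors. UMIs of Cd4 and of a Cd8 gene were both present in 62.2% of resting DP cells at a median of 2053 UMIs, in 69.1% of Tox-high cells at a median of 3715 UMIs, in 79.1% of cycling cells at a median of 8195 UMIs, and in 13.9% of the cells with R under 4 at a median of 1595 UMIs. In B cells, which should have neither and were taken as the cells with at least 3 UMIs of B cell genes and R of 0, the share was 4.93% of 345 cells at a median of 1366 UMIs. The share in resting DP cells ranged from 49.8% to 75.8% over the samples. The coreceptors were found together far more often than in these B cells, and the name was kept. The B cells were held to R of 0 and resting DP cells to R of 4 or more, so this comparison is not independent of the rule. The part of that choice in the gap was not tested. The coreceptors do not set resting DP cells apart from Tox-high or cycling cells, whose shares were higher in deeper cells. Ptcra, which marks the earlier beta-selected stage, did not set the cells apart from all other cells. Its median was 4.56 CPM in resting DP cells and 5.27 CPM in the other cells. Its log2 ratios ran from -0.82 in Mini 1-A to 0.51 in WT 1, the only sample with a positive one.

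Most of R came from Arpp21, which encodes an RNA-binding phosphoprotein and hosts a microRNA. It gave 77.1% of the UMIs of R in resting DP cells, Rag1 21.7% and Rag2 1.18%. A UMI of Arpp21 was found in 99.9% of the cells, of Rag1 in 88.0% and of Rag2 in 17.3%. As a consequence 2174 resting DP cells (10.8%) had no UMI of either Rag gene and were chosen by Arpp21 alone. The median of R was 13 and ranged from 10 in WT 2 to 19 in WT 1. The rule left 995 cells just inside, with R of 4, and 937 cells just outside, with R of 3 and all other conditions met. Cells just inside had 951 ± 133 CPM of Rag1, 3364 ± 462 CPM of Arpp21 and 833 ± 185 CPM of Cd4, and cells just outside had 748 ± 104, 2497 ± 360 and 743 ± 176 CPM (SD, n = 8). Rag1 and Arpp21 make up R, so their step at the threshold is set by the rule.

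Rag1 and Rag2 lie next to each other on mouse chromosome 2 and point towards each other. In GRCm38 coordinates Rag1 spans 101638282 to 101649501 on the minus strand and Rag2 spans 101624718 to 101632529 on the plus strand. Iftap (101560781 to 101649532, minus strand) covers both. It lies on the strand of Rag1, and the counting is not stated to use strand, which could separate it only from Rag2. Reads of these genes therefore cannot be fully separated. The starts of the recombinase genes, which the rule used, and of Dntt, the terminal transferase gene that acts with them, are shown. Arpp21, which gave most of R, has several RefSeq starts, and these are not shown. The windows hold 250 bases before and 50 after the start of the RefSeq transcript in GRCm38.p6, written in the direction of the gene. Capitals mark the E-boxes CAGGTG and CAGCTG, the letters read by E proteins such as those of Tcf12 and Tcf3, and AGGTCA, a half-site of nuclear receptors, each searched on both strands, with no overlap between the motifs.
Rag1, chr2:101649483-101649782, minus strand: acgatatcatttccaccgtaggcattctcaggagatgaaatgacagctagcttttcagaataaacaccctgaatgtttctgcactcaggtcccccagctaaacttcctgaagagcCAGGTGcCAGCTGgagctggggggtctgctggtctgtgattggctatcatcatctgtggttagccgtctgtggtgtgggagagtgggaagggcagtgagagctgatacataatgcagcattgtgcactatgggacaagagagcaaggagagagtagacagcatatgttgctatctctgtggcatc
Rag2, chr2:101624462-101624761, plus strand: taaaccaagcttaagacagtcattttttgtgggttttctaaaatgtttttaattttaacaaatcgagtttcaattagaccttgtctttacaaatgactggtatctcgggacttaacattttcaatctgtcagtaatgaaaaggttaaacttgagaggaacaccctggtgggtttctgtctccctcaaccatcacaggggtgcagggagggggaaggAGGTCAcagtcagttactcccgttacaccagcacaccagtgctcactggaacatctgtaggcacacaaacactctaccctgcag
Dntt, chr19:41029025-41029324, plus strand: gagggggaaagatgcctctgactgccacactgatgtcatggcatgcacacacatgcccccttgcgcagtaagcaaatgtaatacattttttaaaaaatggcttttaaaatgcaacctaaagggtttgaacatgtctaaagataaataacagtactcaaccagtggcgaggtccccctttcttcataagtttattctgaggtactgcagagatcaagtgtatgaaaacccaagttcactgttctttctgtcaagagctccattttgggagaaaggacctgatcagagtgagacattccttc
The Rag1 window held 2 E-boxes, which begin at bases 116 and 123 counted from its 5′ end. The Rag2 window held 1 AGGTCA at base 217, and the Dntt window held neither motif. Of 32851 RefSeq windows of this length, 32.9% held an E-box and 16.3% held AGGTCA or its reverse complement, so a match in 1 window is common and says only that the letters are there.

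The share of resting DP cells among cells of 500 to 25000 UMIs was 39.7%, 29.5%, 33.4% and 28.3% in WT 1 to WT 4, and 36.2%, 43.5%, 40.5% and 44.2% in Mini 1-A, 1-B, 2-A and 2-B. WT 1 lay within the range of the Mini samples and the other WT samples lay below it. The mean was 32.7% ± 5.13 in Parse WT and 41.1% ± 3.66 in Parse Mini (SD, n = 4 each), and the difference of 8.37 percentage points had a two-sided exact permutation p of 0.0571, where 0.0286 is the smallest p that 4 against 4 allows. First-round wells of 1 sample differed by 1.15 to 4.82 percentage points. Cells with at least 3000 UMIs were also thinned to 3000 UMIs each before the rule was applied, and shallower cells were left out. The means were then 26.5% ± 6.24 and 29.2% ± 5.70. The difference of 2.71 points had an exact permutation p of 0.457. Median depths of resting DP cells were below 3000 UMIs in every sample, so this share describes only the deeper cells. Members were also taken by Rag1 and Rag2 alone, with at least 2 UMIs and at least 3 times the UMIs of Tox. The mean share over the 8 samples was then 17.8% in place of 36.9%. These 2 genes gave 21.7% and 1.18% of R, so the same multiple of Tox is a stricter limit. Its part in the fall was not tested.

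The share depended on depth. It was 40.1% ± 9.40 at 500 to 999 UMIs, 55.2% ± 6.18 at 1000 to 1999 UMIs, 25.7% ± 6.79 at 4000 to 7999 UMIs and 4.82% ± 3.57 at 12000 to 25000 UMIs (SD, n = 8). The cells outside the rule also changed with depth. Of the shallowest cells 51.8% had R under 4, and of the deepest 87.9% counted as cycling. Both classes are set by fixed counts of UMIs, so a deeper cell reaches the limits at lower levels of these RNAs. The part of depth in the class of cycling cells was not tested. The other cells were sorted in turn: 11834 had R under 4, 18015 of the rest were cycling cells with more than 1 UMI of Mki67 and Top2a, 1751 of the rest had a UMI of Il2ra, and 7005 were Tox-high cells, with R under 3 times Tox. Median depths over the samples were 6457 to 10234 UMIs in cycling cells, 2836.5 to 4882.5 in Tox-high cells and 1067 to 2241 in cells with R under 4, and these gaps in depth stand beside every comparison between the kinds of cells.

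**Figure D1:**
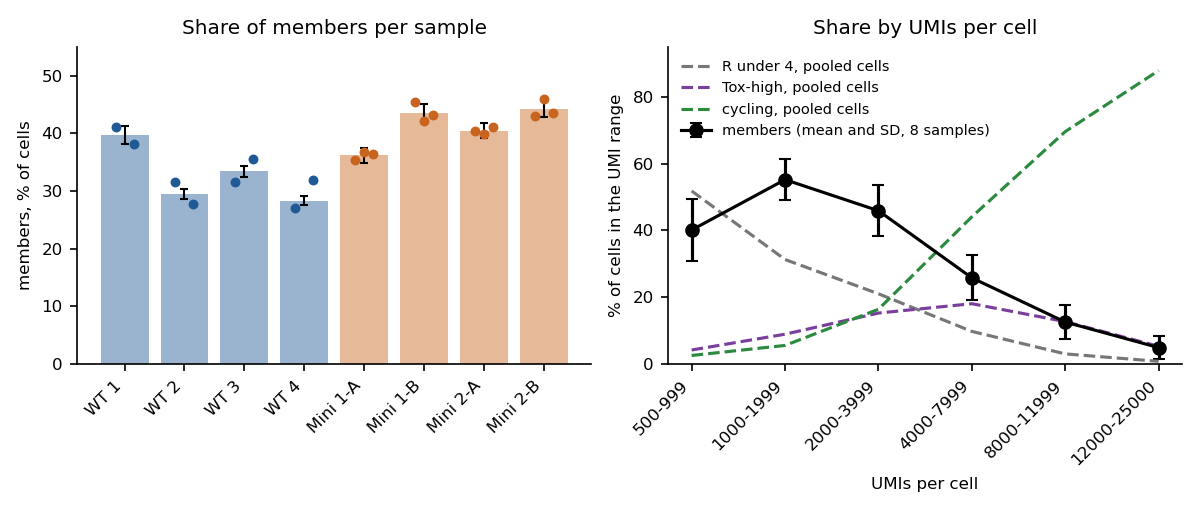
Left, bars give the share of resting DP cells (members) among cells of 500 to 25000 UMIs in each sample in percent, with exact 95% binomial intervals that cover counting error only, and points give the first-round wells. Right, the share by UMIs per cell (mean and SD of 8 samples), with the shares of cells with R under 4, Tox-high cells and cycling cells over pooled cells as dashed lines. The share of resting DP cells was highest at 1000 to 1999 UMIs, and 87.9% of the deepest cells counted as cycling by a limit that is the same at every depth.

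Levels in resting DP cells were set against those in the other cells of the same sample, as the log2 ratio of the summed cells with 0.5 counts added. This is a description without a test, because the cells were chosen by counts of the same libraries. A gene was called when its mean ratio was at least 1.5-fold with one sign in all 8 samples. Of 8375 genes with a mean of at least 10 CPM, 257 (3.07%) were higher and 1188 (14.2%) were lower in resting DP cells, while 1980 (23.6%) and 2842 (33.9%) had one sign in all 8 samples at any size. The median ratio over all genes was -0.04 on the log2 scale. Because so many of the other cells were cycling, each kind was also taken alone. Against Tox-high cells 116 genes (1.39%) were higher and 361 (4.31%) lower, against cycling cells 327 (3.9%) and 1207 (14.4%), and against cells with R under 4 it was 715 (8.54%) and 1480 (17.7%). In sums of cells, fewer cells with an RNA and less of it per cell cannot be told apart.

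**Figure D2:**
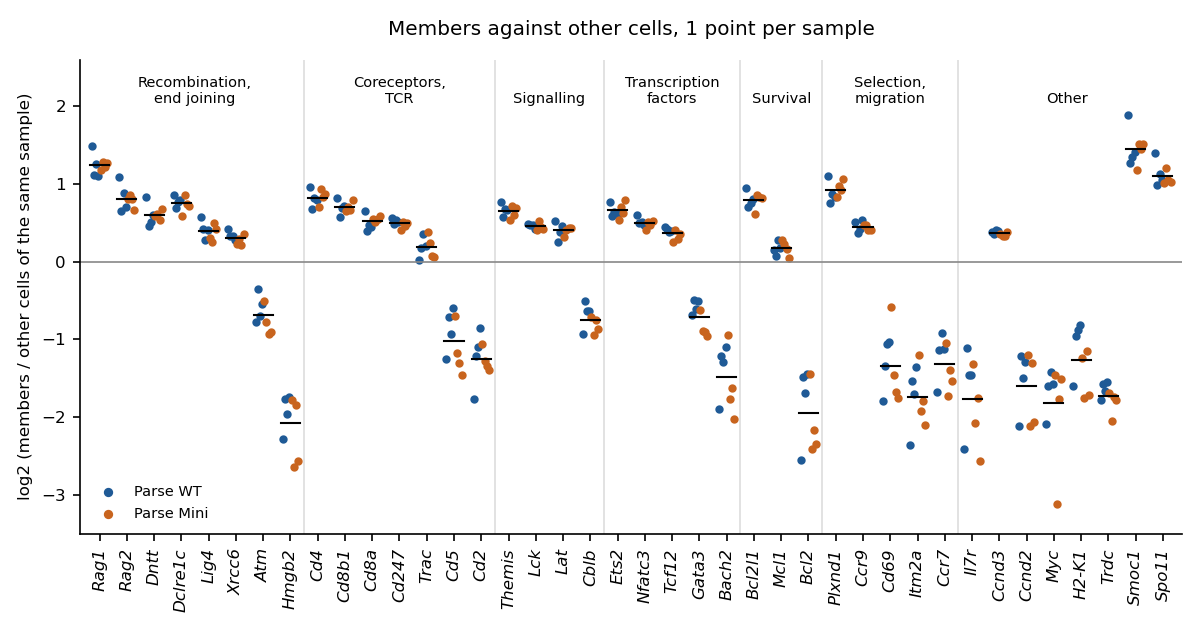
Each point is the log2 ratio of CPM in resting DP cells to CPM in the other cells of 1 sample, blue for Parse WT and orange for Parse Mini, and each black line is the mean of 8 samples. Among the genes plotted, Dntt, Cd4, Bcl2l1 and Smoc1 lie above 0 in every sample, while Bcl2, Il7r, Cd69, Itm2a, Ccr7 and Myc lie below 0 in every sample.

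The recombinase and the end-joining enzymes came first. Rag1 had a lowest, median and highest level of 1362, 1884 and 2110 CPM in resting DP cells and 636, 738 and 930.1 CPM in the other cells, and Rag2 had 68.2, 104 and 108 CPM against 41.8, 57.1 and 66 CPM. Both were used by the rule. Dntt, which encodes terminal transferase, was not, and its 611, 776 and 859 CPM lay above the 402, 530.3 and 565 CPM of the other cells without overlap, at a mean log2 ratio of 0.60 ± 0.11 (SD, n = 8). Dclre1c, which encodes the Artemis nuclease that opens the hairpin ends, had 314, 333 and 413 CPM against 189, 197 and 228 CPM (0.75 ± 0.09). These were the 2 of 14 measured end-joining genes called higher. Against Tox-high cells alone Dntt (0.60) and Xrcc6 (0.61), the Ku70 gene, were called higher, and the call of Dclre1c was lost (0.38). Against cycling cells alone Dclre1c (0.80) was called higher, and the call of Dntt was lost (0.45).

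Other end-joining genes had smaller or negative ratios. Lig4, the ligase of the pathway, had a ratio of 0.39 ± 0.11 and Xrcc6 one of 0.30 ± 0.07, both positive in 8 of 8 samples and below 1.5-fold against all other cells, whereas Xrcc5, the Ku80 gene, had -0.37 ± 0.11. Atm, the kinase that responds to the breaks, was called lower at -0.69 ± 0.20, and so were H2ax (-2.27 ± 0.48) and Hmgb2 (-2.07 ± 0.37). Against Tox-high cells none of these was called lower, at -0.32 for Atm, 0.41 for H2ax and 0.23 for Hmgb2. Hmgb2, a chromatin protein that dividing cells also make, was at 89.1 ± 33.9 CPM in resting DP cells, 75.4 ± 27.6 CPM in Tox-high cells and 489 ± 58.1 CPM in cycling cells. The list had a median ratio of -0.04, beside -0.04 for all genes. Iftap, which overlaps both Rag genes, had 1.09 ± 0.14.

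Genes of both coreceptors were called higher in resting DP cells than in all other cells, but not than in Tox-high cells. Cd4 had a lowest, median and highest level of 721, 1001 and 1173 CPM against 417, 540.2 and 623 CPM in the other cells, without overlap, and a ratio of 0.82 ± 0.10. Cd8b1 had 347, 489.7 and 595 CPM against 211, 314 and 351 CPM, with overlap between samples but with a positive ratio within each of them (0.70 ± 0.08). Cd8a was below the limit of a call at 0.52 ± 0.08. In Tox-high cells Cd4 was at 698 ± 87.2 CPM, Cd8a at 523 ± 64.8 CPM and Cd8b1 at 349.6 ± 51.8 CPM. Of 16 measured coreceptor and TCR genes 2 were called higher and 2 lower, and 12 had a positive ratio in all 8 samples. Against Tox-high cells alone the calls of Cd4 and Cd8b1 were lost, at log2 ratios of 0.46 and 0.48, and 0 genes of the list were called higher and 3 lower.

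The CD3 chains lay above the other cells by less than the limit of a call, and the proximal signalling genes differed in direction. Cd247, the zeta chain, had a ratio of 0.49 ± 0.05, Cd3e 0.28 ± 0.04 and Cd3d 0.22 ± 0.06, each positive in 8 of 8 samples. Themis, a signalling protein that thymocytes need during selection, was at 5510.1, 6606 and 7406 CPM against 3471, 4379 and 4589 CPM, without overlap (0.65 ± 0.08). The kinase Lck (0.45 ± 0.04) and the adaptor Lat (0.40 ± 0.09) were positive in every sample but below 1.5-fold. Cblb, an E3 ligase that dampens TCR signals, was called lower at -0.75 ± 0.16, a call that was lost against cycling cells (-0.39). Themis and Cblb were the 1 gene called higher and the 1 called lower of 20, with a median of 0.26, and 14 were positive and 5 negative in all 8 samples. Against Tox-high cells 0 were higher and 4 lower, with a median of -0.04, and the call of Themis was lost (0.34).

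Cd5 and Cd2 had the opposite pattern. Cd5, a receptor whose level follows the strength of TCR signals, was at 128, 157 and 196 CPM in resting DP cells and at 248, 319.9 and 417 CPM in the other cells (-1.02 ± 0.32), a call that was lost against cycling cells (-0.42). Its mean level was 157 ± 22.7 CPM in resting DP cells, 209 ± 23 CPM in cycling cells, 532 ± 48.3 CPM in Tox-high cells and 623 ± 109 CPM in cells with R under 4. Cd2, an adhesion receptor, was at 40.9 ± 3.85 CPM in resting DP cells, 131 ± 13.1 CPM in Tox-high cells and 233 ± 36 CPM in cells with R under 4.

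Among 25 measured T cell transcription factors 2 were called higher and 6 lower. Ets2, of the ETS family, was at 292, 314 and 399.6 CPM against 190.4, 201 and 234 CPM in the other cells, without overlap (0.66 ± 0.09). Against Tox-high cells alone its call was lost (0.39), and 0 of these factors were called higher and 7 lower. Nfatc3 (0.50 ± 0.06), Myb (0.42 ± 0.06) and the E protein gene Tcf12 (0.37 ± 0.06) were positive in all samples below 1.5-fold. Satb1, a chromatin organiser, and Bcl11b, which maintains T cell identity, had ratios of 0.28 ± 0.03 and 0.11 ± 0.05. Those called lower were Bach2 (-1.48 ± 0.40), Gata3 (-0.71 ± 0.18, not called against cycling cells at -0.56), Runx3 (-1.22 ± 0.33), Zbtb7b (-1.63 ± 0.53), Klf2 (-1.32 ± 0.57) and Tox2 (-1.77 ± 0.33). Zbtb7b and Runx3 specify the CD4 and CD8 lineages, and Klf2 drives exit from the thymus. Zbtb7b was at 4.78 ± 1.54 CPM in resting DP cells, 19.4 ± 7.14 CPM in Tox-high cells and 42.4 ± 13.1 CPM in cells with R under 4.

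Related survival genes differed in direction. Bcl2l1, the Bcl-xL gene, was at 400.2, 449 and 502 CPM in resting DP cells and 228, 261 and 292 CPM in the other cells, without overlap (0.79 ± 0.10). Bcl2, its relative in mature T cells, was at 129, 161 and 211 CPM against 469.8, 629 and 908 CPM, without overlap (-1.94 ± 0.48). Taken alone, Tox-high cells, cycling cells and cells with R under 4 gave log2 ratios of 0.62, 0.70 and 1.92 for Bcl2l1 and of -2.23, -1.33 and -3.15 for Bcl2. The other 7 of 9 measured genes of survival and death were not called, among them Mcl1 (0.17 ± 0.09) and the death gene Bcl2l11 (0.14 ± 0.12).

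All 9 measured genes of selection and activation were called lower, with a median of -1.39. Cd69, an early activation antigen, was at 14.5, 17.5 and 33.2 CPM in resting DP cells and 35.9, 51.8 and 66.7 CPM in the other cells (-1.34 ± 0.42). Itm2a was at 15.8, 19.9 and 25.7 CPM against 59, 67.2 and 81.5 CPM (-1.75 ± 0.38), and Ikzf2, which encodes Helios, had -1.45 ± 0.29. The immediate-early receptor gene Nr4a1 had -0.85 ± 0.20. Against Tox-high cells alone 8 of 9 were called lower, with a median of -1.80, and against cycling cells 8 of 9, with -0.80. Tox, which the rule used, is itself raised in selection, so this list is not independent of the rule.

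Of 10 measured genes of migration 1 was called higher and 5 lower. Plxnd1, a semaphorin receptor that acts in the move to the medulla, was at 282, 411 and 447 CPM against 167, 209.7 and 236 CPM (0.92 ± 0.12). Against Tox-high cells alone its call was lost (0.52), and 0 genes of migration were called higher and 5 lower. Ccr9, the receptor for the thymic chemokine CCL25, had 0.45 ± 0.06 and was not called. Ccr7, which guides selected cells to the medulla, was at 25.7, 33.8 and 48.3 CPM against 68.7, 80.7 and 127 CPM (-1.32 ± 0.31), and S1pr1, the exit receptor, was at 9.46 ± 2.30 CPM against 64.9 ± 12.2 CPM in cells with R under 4. Against cycling cells alone neither was called, at -0.49 and -0.46.

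Of 10 measured genes of cytokine receptors and their signalling, among them Jak3 and Socs1, 4 were called lower and 0 higher. Il7r, the receptor chain for interleukin-7, was at 22.1, 32.7 and 45.7 CPM in resting DP cells and 81.3, 114 and 142 CPM in the other cells, without overlap (-1.77 ± 0.53). In MHC class I 5 of 11 genes were called lower, with a median of -0.53. H2-K1 was at 20.7, 30.7 and 43.3 CPM against 53.2, 72.2 and 95.9 CPM (-1.26 ± 0.38), and B2m, the light chain, had -0.65 ± 0.14, which was not called against Tox-high (-0.46) or cycling cells (-0.33). Of 8 measured genes of mature single-positive cells 7 were called lower, with a median of -1.32.

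**Figure D3:**
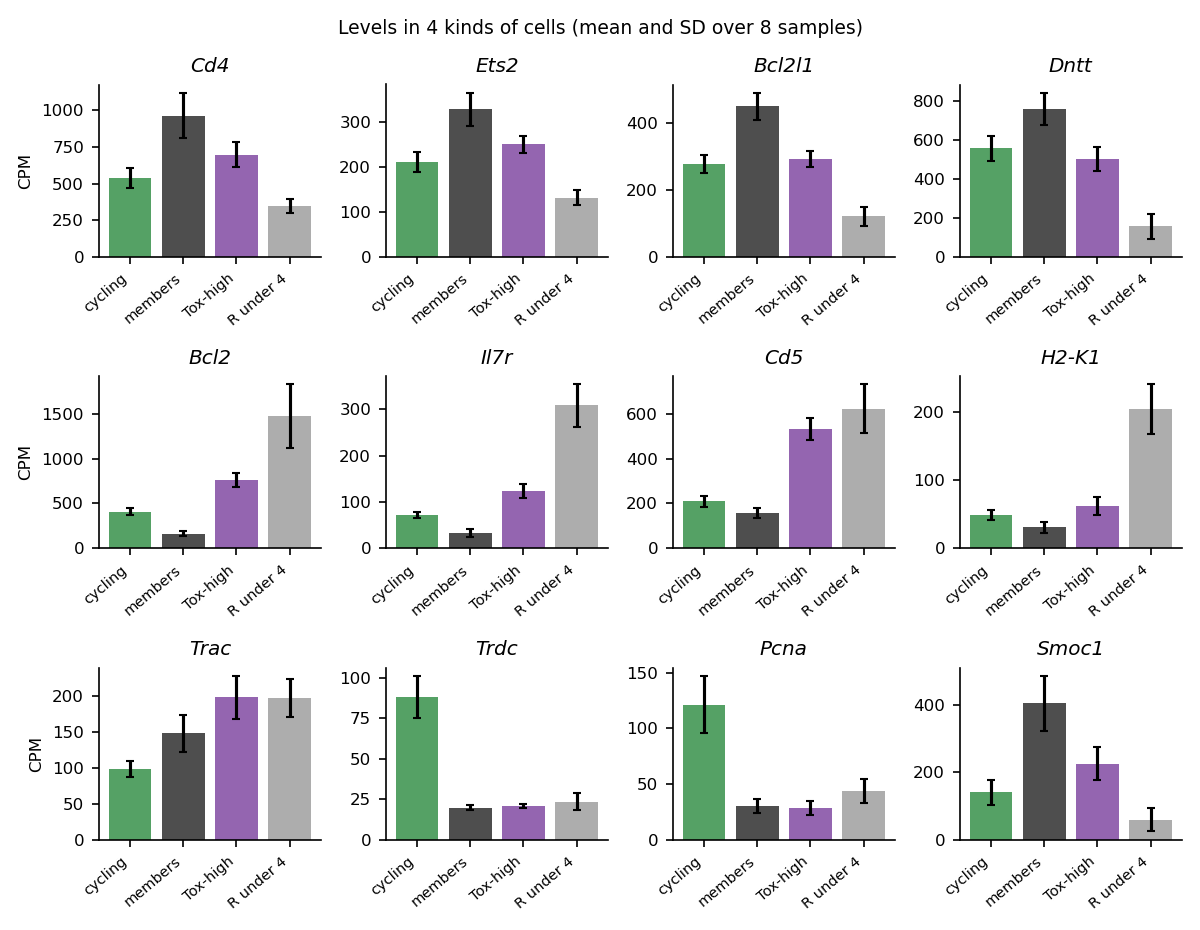
Bars give the mean level in CPM of 12 genes in cycling cells, resting DP cells (members), Tox-high cells and cells with R under 4, with the SD over 8 samples. Among these kinds of cells, the mean of Cd4, Ets2, Bcl2l1, Dntt and Smoc1 was highest in resting DP cells, that of Bcl2, Il7r, Cd5 and H2-K1 was lowest there, and that of Trdc and Pcna was highest in cycling cells.

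Genes of division were lower, in part by construction, since the rule capped Mki67 and Top2a in resting DP cells and not in the other cells. All 19 measured genes of DNA replication and 22 of 23 of G2 and mitosis were called lower, with medians of -2.02 and -3.45. Against Tox-high cells, which have the same cap, 0 of 19 and 0 of 23 were called in either direction, with medians of 0.08 and 0.29. When the other cells were limited to those with at most 1 UMI of Mki67 and Top2a, 756 genes were called lower instead of 1188, of which 534 were shared, and genes of division such as Cdk1 (0.0259), Pcna (0.00833) and Hmgb2 (0.0961) then had mean ratios just above 0. Of the resting DP cells 77.4% had no UMI of Mki67 or Top2a.

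Cyclins and growth genes differed from each other. Ccnd3, a D cyclin of early thymocytes, was at 4942, 5019 and 5475 CPM in resting DP cells and 3778, 3936 and 4204 CPM in the other cells, without overlap, at a ratio of 0.37 ± 0.03 that is below the limit of a call. It was at 5021 ± 209.6 CPM in Tox-high cells (log2 ratio 0.02) and 3655 ± 119 CPM in cycling cells. Ccnd2 was called lower at -1.60 ± 0.42. Myc, which drives growth, was at 2.28, 4.88 and 7.03 CPM against 11.5, 15.3 and 25.6 CPM (-1.82 ± 0.57). Its call held against cycling cells (-1.91) and was lost against Tox-high cells (-0.81). Ribosomal protein genes had a median of -0.43 with 18 of 87 called lower, and of 15 measured genes of glucose use and growth 4 were called lower and 12 were lower in all samples.

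Beyond the lists, the 15 genes with the highest ratios included genes known from other tissues. Smoc1, which encodes a secreted matrix protein, was at 299, 387 and 572 CPM in resting DP cells and 95.7, 147 and 204 CPM in the other cells, without overlap (1.45 ± 0.21). Slit3, a guidance ligand, was at 87.7, 127 and 177 CPM against 41.1, 49.1 and 54.2 CPM (1.36 ± 0.25). Spo11, which encodes the enzyme that cuts DNA in meiosis, was at 139, 211 and 259 CPM against 67.1, 95.7 and 129 CPM (1.10 ± 0.14). Each of these was higher within every sample. Tdrd5, a germ cell gene, was at 251, 362 and 468 CPM against 120.0, 164 and 212 CPM (1.16 ± 0.17). Others were Slc6a19, an amino acid transporter gene, Zfyve28, BB031773, Gm32004, Gm38405, Gm27230, BC065403, Gm6209, Gm44175 and Gm20488.

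Each of these 15 genes was called higher against Tox-high cells, cycling cells and cells with R under 4 taken alone. The genes were chosen for high ratios to all other cells, of which these kinds are parts, so these calls are not independent of the choice. By their medians, some reached the 50 CPM needed to be named only in resting DP cells, such as BB031773 (72.3 against 25.7 CPM). Others reached it in both, such as Smoc1 (387 against 147 CPM). Smoc1 was at 225 ± 48.6 CPM in Tox-high cells, 141 ± 37.1 CPM in cycling cells and 59.96 ± 32.8 CPM in cells with R under 4. Tdrd5 (chromosome 1, 156255296 to 156303664) lies on the minus strand in GRCm38, and Gm27230 (72395974 to 72404510, plus strand) lies within BC065403 (72361735 to 72409945, minus strand) on chromosome 9, so the counts of this pair cannot be told apart without strand. The 15 lowest beyond the lists were genes of division such as Depdc1b (-4.60 ± 0.63), Kif14 (-4.57 ± 0.69) and Kif4 (-4.44 ± 0.83), none of which was called against Tox-high cells (-0.34, -0.03 and 0.29).

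The TCR alpha locus was read through its V segments. No UMI was assigned to any of the 60 Traj segments listed, so the use of J segments could not be followed. Of 130 Trav segments 80 had a UMI in resting DP cells, 4413 UMIs in all, and near-identical Trav copies make the assignment to single segments uncertain. The segments with the highest shares were Trav14-1 with 12% ± 4.00 of Trav UMIs, Trav14-2 with 7.85% ± 1.34, Trav6-7-dv9 with 6.46% ± 1.45, Trav13-1 with 4.01% ± 2.01 and Trav10 with 4.01% ± 1.09 (SD, n = 8). They lay 445 to 649 kb from Traj61, the first listed J segment, while the most distal V segment lies 1726 kb from it.

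The span from the most distal V segment to Traj61 was cut into 3 parts of equal length, called distal, central and proximal to the J segments. Segments without a UMI in resting DP cells lay mostly in the distal and central parts. Among them were whole runs of copies, such as Trav14d-1 to Trav3d-3 and Trav14n-1 to Trav3n-3. Whether reads of such copies were lost was not tested, so these shares do not measure how often V segments were used. In resting DP cells the distal part had 6.47% ± 1.59 of Trav UMIs, the central part 47.1% ± 2.90 and the proximal part 46.4% ± 3.24. In cycling cells, from 7408 UMIs, they were 5.71% ± 1.02, 40.7% ± 2.45 and 53.6% ± 2.85. The proximal share differed from that in cycling cells of the same sample by -7.24 ± 3.18 percentage points and was lower in 8 of 8 samples, and the central share differed by 6.48 ± 2.59 and was higher in 8 of 8. Segments with dv in their name also serve TCR delta. Of the proximal ones, Trav15-2-dv6-2 (3.32% against 1.49%), Trav21-dv12 (3.19% against 1.56%) and Trav13-4-dv7 (2.01% against 1.11%) were higher in cycling cells. Trav6-7-dv9 (5.28% against 6.46%) and Trav4-4-dv10 (1.73% against 2.00%) were lower there. The part of TCR delta RNA in these shares was not tested. Against Tox-high cells the proximal share differed by -1.58 ± 5.23 points, with either sign in 4 samples. Trav UMIs in total were 99.8 ± 19.99 CPM in resting DP cells, 59.5 ± 8.16 CPM in cycling cells, 114 ± 21.7 CPM in Tox-high cells, which were above resting DP cells in 8 of 8 samples, and 96.1 ± 24.6 CPM in cells with R under 4. In the last, from 1886 UMIs, the proximal share was 42.8% ± 4.31, and it was higher in resting DP cells in 6 of 8 samples.

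The alpha and delta constant genes differed in pattern. Trac, the alpha constant gene (chromosome 14, 54220521 to 54224206), was at 137, 126, 185 and 112 CPM in resting DP cells of WT 1 to WT 4 and at 178, 160.1, 150.0 and 133 CPM in Mini 1-A, 1-B, 2-A and 2-B. Trdc, the delta constant gene (54142851 to 54148868), was at 17.5, 20.7, 21.7 and 19.2 CPM and at 21, 17.4, 21.3 and 19.9 CPM in the same order. Trdc thus varied little between samples and experiments. In cycling cells Trac was at 98.6 ± 11.1 CPM and Trdc at 88.1 ± 13 CPM. The ratio of Trac to Trdc UMIs was 7.46 ± 1.23 in resting DP cells and 1.14 ± 0.202 in cycling cells, higher in 8 of 8 samples and without overlap. Tox-high cells had a ratio of 9.57 ± 1.28, above that of resting DP cells in 8 of 8 samples, with Trdc at 20.6 ± 1.23 CPM and Trac at 197 ± 29.98 CPM, and cells with R under 4 had a ratio of 8.73 ± 1.98.

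Markers of gamma-delta and of earlier thymocytes moved with Trdc. Against cycling cells 4 of 4 measured genes of the gamma-delta and innate-like list, Trdc among them, were called lower in resting DP cells, with a median of -1.87. Without Trdc, the summed level of that list was 8.95 to 23.6 CPM in resting DP cells and 51.3 to 67.8 CPM in cycling cells. Of 6 measured genes of the double-negative (DN) stage and Notch, 3 were called lower, Erg at -2.06, Kit at -1.26 and Notch1 at -1.17, and the list summed to 169 to 238 CPM and 265 to 428 CPM. Il2ra, which the rule kept at 0 in resting DP cells, had a UMI in 13.1% of cycling cells. In the cycling cells without one, a choice made after seeing the data, the ratio of Trac to Trdc was 1.14 ± 0.211, below that of resting DP cells in 8 of 8 samples and without overlap. In these cells the lists still summed to 39.5 to 57.4 CPM without Trdc and to 229 to 379 CPM. Leaving out cells with a UMI of Il2ra cannot remove every gamma-delta or earlier cell. The part of those cells in the ratio was not tested.

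**Figure D4:**
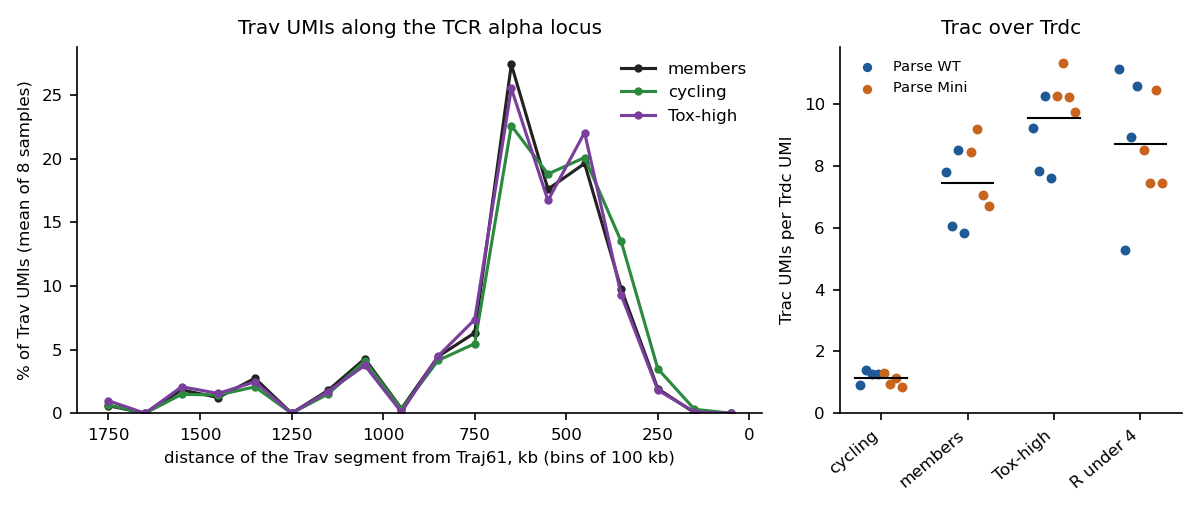
Left, the percent of Trav UMIs in bins by distance from Traj61 in kb, as the mean of 8 samples, for resting DP cells (members), cycling and Tox-high cells. Right, the ratio of Trac to Trdc UMIs per sample in the 4 kinds of cells, with the mean as a line. The ratio was 0.861 to 1.40 in cycling cells and 5.84 to 9.20 in resting DP cells.

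Resting DP cells were also compared among themselves. Of 3649 genes with at least 50 CPM in them and outside the rule, 2 had a higher level in cells with a Rag UMI than in those without in all 8 samples and a mean of at least 1.5-fold, Slc6a19 (0.60 ± 0.56) and Edem3 (0.59 ± 0.91), and 2 were lower by the same measure, Pola1, of DNA replication (-0.73 ± 0.37), and Rps23 (-0.66 ± 0.43). The first 2 means lie at the limit of 1.5-fold with wide spreads. Cells without a Rag UMI had 885 ± 162 CPM of Cd4 and 404 ± 75.7 CPM of Bcl2l1, and cells with one had 969 ± 155 and 453 ± 40.3 CPM (SD, n = 8). Bcl2 was at 87.2 ± 15 CPM in resting DP cells of 500 to under 1500 UMIs, 92.4 ± 20.9 CPM at 1500 to under 3000 UMIs and 221 ± 47 CPM at 3000 UMIs or more, and Cd69 was at 12 ± 3.92, 15.4 ± 5.16 and 23.8 ± 8.53 CPM. The levels of both were highest in the deepest cells. Tox, which the rule limits relative to R, was at 548 ± 74.9, 607 ± 95.6 and 869.9 ± 105 CPM, and its part in these differences was not tested.

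The experiments were compared over the summed resting DP cells of the 4 samples each, with the quasi-likelihood test of edgeR and Benjamini-Hochberg adjustment. Of 11517 genes tested, 97 (0.842%) were higher and 364 (3.16%) lower in Parse Mini at an adjusted p under 0.05. Rag1, which the rule used and which is therefore given without a test, was at 1902, 1396, 1661 and 1362 CPM in WT 1 to WT 4 and at 2110, 1897, 1949 and 1871 CPM in Mini 1-A to 2-B, where WT 1 overlapped the Mini samples. Cd4 had a log2 difference of 0.25 ± 0.09 (SE, edgeR adjusted p = 0.128) and Bcl2l1 of 0.13 ± 0.06 (0.287). Of 14 measured end-joining genes 0 were higher and 0 lower in edgeR, where 2 and 2 had an unadjusted p under 0.05.

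Some of the named genes passed the test. Bcl2l11, which encodes the death protein Bim, was at 654, 493, 499 and 555 CPM in WT 1 to WT 4 and at 383, 396, 359.9 and 345 CPM in the Mini samples, without overlap (-0.65 ± 0.08 (SE), edgeR adjusted p = 0.000859), and the other cells differed by -0.50. Tdrd5 was at 333, 313, 301 and 251 CPM against 392, 468, 420.3 and 458 CPM (0.47 ± 0.08, edgeR adjusted p = 0.00451). Ptprc, the CD45 gene (0.25 ± 0.06), and Tespa1, a signalling adaptor (0.31 ± 0.07), were higher in Mini, and Nr4a1 (-0.77 ± 0.18), Ccr7 (-0.57 ± 0.12) and H2-K1 (-0.64 ± 0.16) were lower. Of 90 measured ribosomal protein genes 67 were lower, with a median of -0.86.

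Genes of other cells were among those lower in Mini. Of 7 measured B cell genes 6 were lower, with a median of -1.99, and of 6 of antigen-presenting cells 3 were. Ebf1, a B cell factor, was at 51.1, 54.9, 37.4 and 49.2 CPM in resting DP cells of WT 1 to WT 4 and at 26.8, 9.52, 3.58 and 3.87 CPM in Mini. Cd74, the invariant chain, was at 32.2, 31.5, 29.9 and 30.9 CPM against 15.8, 19.9, 9.85 and 14.9 CPM, and Blk, a B cell kinase, was at 12.4, 10.2, 8.03 and 7.84 CPM against 1.66, 0.414, 1.34 and 1.41 CPM. None of the 3 overlapped between the experiments. The summed 8 B cell genes were at 183 to 236 CPM in WT and at 74.1 to 145 CPM in Mini resting DP cells, and at 164 to 336 and 99.8 to 145 CPM in the other cells. Summed erythroid genes were at 6.02 to 10.3 and 0.553 to 1.34 CPM in resting DP cells of WT and Mini. None of these genes was at 0 over all resting DP cells.

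The Parse WT library, labelled as thymus and spleen, also held 16 samples in wells outside the thymic ones, and Blk had a median of 292 CPM there, Cd74 of 797 CPM and Ebf1 of 2287 CPM. Of the 364 genes lower in Mini, 25% were over 10-fold higher in the median of those samples than in WT resting DP cells, against 2.35% of all genes tested, and 34.6% were over 2-fold higher, against 17.5%. Their part in the result was not tested. Gm42047 differed the other way, at 12.2, 23.9, 15.6 and 12 CPM in WT and 84.9, 74.1, 78.8 and 87.2 CPM in Mini (2.27 ± 0.16). The counts higher and lower were 356 and 677 without WT 1, 69 and 289 without WT 2, 28 and 220 without WT 3, 14 and 184 without WT 4, 54 and 294 without Mini 1-A, 27 and 220 without Mini 1-B, 17 and 176 without Mini 2-A and 23 and 217 without Mini 2-B.

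**Figure D5:**
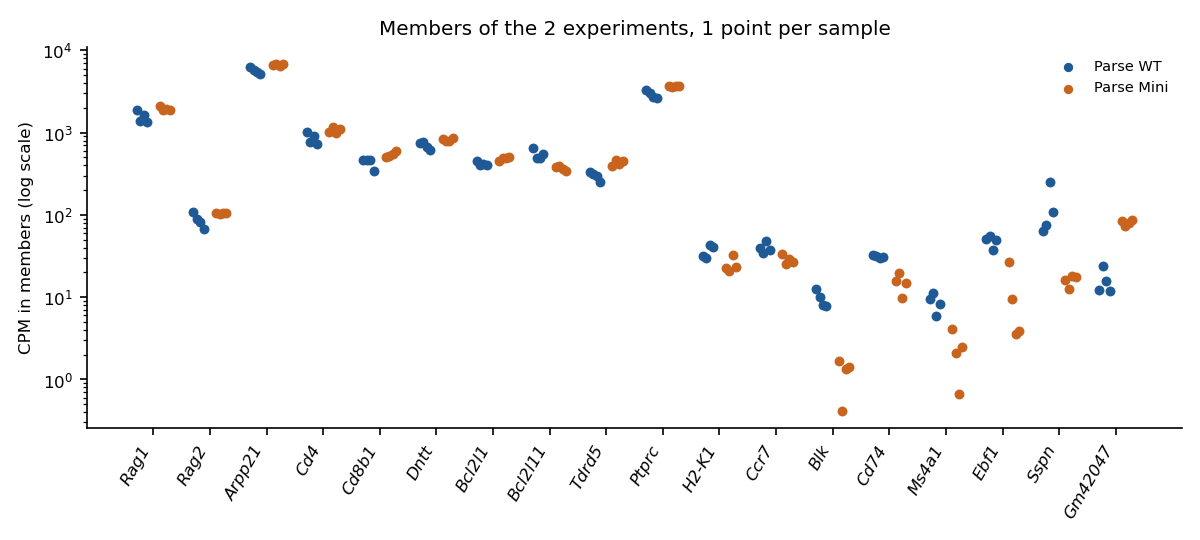
Levels in resting DP cells of the 4 Parse WT samples (blue) and the 4 Parse Mini samples (orange) in CPM on a log axis, 1 point per sample. Bcl2l11 was lower in every Mini sample than in any WT sample, and so were Blk, Cd74 and Ebf1, while Gm42047 was higher in every Mini sample.

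A gene may differ between experiments in the whole sample or in resting DP cells beyond the other cells. The interaction test in edgeR on 14324 genes, with the sample as a block, called 0 higher (0%) and 2 lower (0.014%) in Mini, where 191 and 777 had an unadjusted p under 0.05 and DESeq2 called 0 and 3. The genes were Blk, with a difference in log2 ratio of -2.38 ± 0.35 (SE, edgeR adjusted p = 0.0195), and Hdac9, which encodes a histone deacetylase, with -1.41 ± 0.22 (edgeR adjusted p = 0.0219). The log2 ratio of Blk in resting DP cells to the other cells was -1.41, -0.32, -0.63 and -0.62 in WT 1 to WT 4 and -2.28, -4.49, -2.95 and -2.87 in Mini. Hdac9 was at 18.7, 24.7, 22 and 21.5 CPM in WT and 10.8, 10.1, 8.06 and 5.10 CPM in Mini resting DP cells, with a median of 324 CPM in the 16 other samples. For Cd4 the difference in ratio was 0.05 ± 0.06 and for Bcl2l1 0.01 ± 0.06. DESeq2 shared 1 of its genes with edgeR, Blk, and gave Hdac9 an adjusted p of 0.234. Without WT 1 the counts were 5 and 118, without Mini 1-A 1 and 30, without Mini 1-B, where Blk had an edgeR adjusted p of 0.0799, 0 and 2, and 0 and 0 without WT 2, WT 3, WT 4, Mini 2-A or Mini 2-B.

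In those 16 samples, 307 of 85092 cells passed the rule, with a median share of 0.124% and a range of 0% to 1.35% over the samples.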

How the data were processed

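UMI counts of single cells were measured in 8 thymic samples, 4 of Parse WT and 4 of Parse Mini. The deposited files hold raw UMI counts per cell and gene, which the authors obtained with split-pipe and the mm10 reference, sublibrary by sublibrary, before joining them into 1 matrix per experiment. For split-pipe, no source used here gives the version or the threshold for calling cells. The authors' 10x libraries were not used here. Of 57010 genes listed, 52029 (91.3%) were found in GENCODE M21, from which positions were taken.

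Cells of 500 to 25000 UMIs were kept, counts were summed per sample over resting DP cells and over the other cells, and CPM were computed outside 3 ribosomal RNA genes. No doublets were removed, except in an alternative that left out the 10% of cells with the highest doublet scores. The paper called a larger share than this as doublets in both Parse libraries and removed them. The alternative therefore left out fewer cells, and the part of doublets in the comparisons was not otherwise tested. Members and gene lists were chosen with earlier results of these data known. The genes named are those of the lists and, beyond them, those with at least 50 CPM that were among the 15 highest and the 15 lowest ratios with one sign in all 8 samples, or those with the smallest adjusted p between experiments. Edem3, Iftap and Rps23 fall outside that rule and were chosen after their values were seen. Some genes that the rule names are not reported here.

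Experiments were compared with edgeR 4.0.16 in R 4.3.3 (quasi-likelihood test, TMM, filterByExpr, Benjamini-Hochberg), tested on simulated data, with DESeq2 1.42.0 as an alternative. Other steps used Python 3.11.15, scipy 1.17.1 and scikit-learn 1.9.0. Alternatives changed the rule, the depth, doublets, the denominator, the filter, the kind of other cells and the samples. Resting DP cells of a sample had median depths of 1550 to 2738 UMIs. Intervals cover counting error only.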

Additional observations from a re-analysis of the deposited data

Results flagged for a closer look

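In 3 of 73 groups of 4 or 8 values (log2 ratios to the other cells, shares of cells and of Trav UMIs, and depths), 1 sample lay far from the rest, and chance flags about 1 in 20 groups. Myc in Mini 1-B had a log2 ratio of -3.12, where the other samples had -2.09 to -1.42. Npm1 in Mini 1-A had -0.40, where the other samples had -0.82 to -0.62. Trdc in Mini 1-B had -2.05, where the other samples had -1.78 to -1.55.

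The ratio to the other cells differed between the experiments for Blk, by -2.38, and for Hdac9, by -1.41, on the log2 scale. In the 16 samples of the Parse WT library that entered no comparison, 307 cells passed the rule.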

How the results depend on the processing

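The mean share of resting DP cells was 36.9%, and 35.9% to 38.1% when 1 sample was left out. It was 27.9% in cells of at least 3000 UMIs thinned to 3000 each, with shallower cells left out. By Rag1 and Rag2 alone, with Tox limited against these 2 genes, it was 17.8%. Genes called lower against the other cells numbered 756 when those were limited to cells that were not cycling, and higher calls then made up 27.9% of all calls, against 17.8% in the report and 26% in cells of 1500 to under 3000 UMIs, a band chosen after seeing the data. With 1 sample left out the counts were 243 to 269 higher and 1170 to 1228 lower. With the limit to other cells that were not cycling, 36 log2 ratios turned from negative to positive, namely Mki67 0.28, Top2a 0.0644, H2ax 0.23, Hmgb2 0.0961, Mcm2 0.00542, Mcm7 0.0279, Pcna 0.00833, Tyms 0.0613, Rrm2 0.0675, Dut 0.22, Cdc6 0.0400, Tk1 0.16, Cdk1 0.0259, Ccnb2 0.36, Ccna2 0.15, Cenpe 0.26, Cenpf 0.30, Aurka 0.0897, Aurkb 0.14, Bub1b 0.47, Kif11 0.11, Tpx2 0.0371, Nusap1 0.12, Birc5 0.0585, Ube2c 0.36, Hmmr 0.16, Ncapg 0.16, Anln 0.0892, Cdkn2c 0.37, Neil3 0.19, Kif15 0.0145, E2f8 0.11, Spag5 0.14, Aspm 0.15, Ckap2l 0.13 and E2f7 0.25. The other log2 ratios of named genes that were called kept their sign. Turns of sign were counted only for called genes, so genes that were not called could change sign uncounted. Of 4864 values 4256 moved by less than the SD over samples while 572 moved by more. Most of these came from 2 settings: 209 of 256 values moved in cells of 1500 to under 3000 UMIs, and 162 moved beside the 36 that turned with other cells that were not cycling. Of the genes called lower in the report, 65% and 44.9% were also called lower there. Genes higher in Mini among resting DP cells numbered 179 with DESeq2, 228 with no filter on low counts, 21 after thinning, 193 and 208 with lobes summed to 2 per experiment by number or by letter, and 14 to 356 with 1 sample left out. Genes lower numbered 765 with no filter, 160 after thinning, 619 and 655 with lobes summed, and 176 to 677 with 1 sample left out. Of 611 values of named genes in that comparison 89 no longer passed the test. In the difference between experiments of the ratio to the other cells, 10 genes were higher and 112 lower with no filter, and 0 to 5 and 0 to 118 with 1 sample left out. The cause of these changes was not tested. No paired analysis was possible because no source used here matches a lobe of Parse WT with one of Parse Mini. The numbers in the titles of the deposited samples mark sublibraries, not the thymic samples named here. Resting DP cells and other cells were compared within each sample. At about 2000 UMIs per cell, a gene of low level is not seen in most cells, which limits the rule and all shares of cells.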
